A study of Mus musculus with 20 samples.

Results

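Toll-like receptors are a family of innate immune receptors, each tuned to a class of microbial molecule, and CD14 is a surface protein that hands lipopolysaccharide (LPS) to one of them. The results below follow 10 genes of mouse macrophages: Tlr1, Tlr2, Tlr3, Tlr4, Tlr6, Tlr7, Tlr8, Tlr9, Tlr13 and Cd14. They were chosen by symbol. Each is represented by the RefSeq transcript with the highest total count, and they make up 10 of the 24342 symbols in the count table. All 10 passed the filter on low counts, which left 12013 genes for testing.

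The study asked how DOT1L, the methyltransferase of lysine 79 on histone H3, bears on lipid synthesis and inflammatory responses of macrophages. Macrophages were derived from C57BL/6 bone marrow over 7 to 8 days in 15% L929-conditioned medium, a source of macrophage colony-stimulating factor, and every group shares this background. The DOT1L inhibitor SGC0946 (1 µM) or its solvent DMSO was present during that growth. The groups were SGC0946+LPS and DMSO+LPS (10 ng/mL LPS for 3 h, n = 3 each), SGC0946+GW3965 and DMSO+GW3965 (2 µM of the LXR agonist GW3965 for 17 h, n = 3 each), and unstimulated SGC0946 and DMSO (n = 4 each). The labels give no age or sex for the mice. Such cultures are grown outside the animal and bear on tissue macrophages only as a model.

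TLR4, with its partner MD-2 and with CD14, is the receptor for LPS, while TLR2 pairs with TLR1 or TLR6 to sense bacterial lipopeptides. All of these act at the cell surface. TLR3, TLR7, TLR8, TLR9 and TLR13 act in endosomes, where TLR3 senses double-stranded RNA, TLR7 single-stranded RNA, TLR9 unmethylated CpG DNA and mouse TLR13 a stretch of bacterial ribosomal RNA. Most of them signal through the adaptor MyD88 to NF-kB. TLR3 signals through TRIF instead, and TLR4 uses both.

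The sequence upstream of the start site is shown for 4 of the genes, because their LPS responses span the range seen here: Tlr2 and Tlr3 rose steeply, Tlr9 moved little and Tlr13 fell. RefSeq's promoter table for GRCm38.p6 held entries for Tlr1, Tlr2, Tlr3, Tlr6, Tlr8, Tlr9 and Tlr13. Each line gives the 250 bases before the start used by that table, 5′ to 3′ on the gene's strand. The Tlr9 and Tlr13 windows abut the outer end of the annotated gene. The Tlr3 window lies inside the annotated span of its gene, and most of the Tlr2 window, its NF-kB matches included, does too. Capitals mark matches, on either strand, to any of 4 short motifs: GGG and CC with any 5 bases between for NF-kB, GAAA and GAAA with any 2 bases between for the interferon-stimulated response element, TGANTCA for AP-1 and GAGGAA for PU.1.
Tlr2 (chr3:83841609-83841858, minus strand): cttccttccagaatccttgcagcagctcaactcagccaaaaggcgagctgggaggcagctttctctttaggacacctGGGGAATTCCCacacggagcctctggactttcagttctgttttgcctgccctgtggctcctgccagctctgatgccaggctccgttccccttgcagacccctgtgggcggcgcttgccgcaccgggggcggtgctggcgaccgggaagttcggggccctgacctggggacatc
Tlr3 (chr8:45410381-45410630, minus strand): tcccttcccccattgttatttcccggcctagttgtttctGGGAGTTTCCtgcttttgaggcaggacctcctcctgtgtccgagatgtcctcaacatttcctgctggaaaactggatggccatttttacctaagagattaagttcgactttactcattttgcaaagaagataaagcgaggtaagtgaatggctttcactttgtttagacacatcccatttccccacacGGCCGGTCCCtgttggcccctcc
Tlr9 (chr9:106222348-106222597, plus strand): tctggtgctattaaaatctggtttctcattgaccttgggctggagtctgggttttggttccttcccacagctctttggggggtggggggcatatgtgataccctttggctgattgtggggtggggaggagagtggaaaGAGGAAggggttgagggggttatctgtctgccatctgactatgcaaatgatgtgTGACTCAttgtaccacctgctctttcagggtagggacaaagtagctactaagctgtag
Tlr13 (chrX:106143025-106143274, plus strand): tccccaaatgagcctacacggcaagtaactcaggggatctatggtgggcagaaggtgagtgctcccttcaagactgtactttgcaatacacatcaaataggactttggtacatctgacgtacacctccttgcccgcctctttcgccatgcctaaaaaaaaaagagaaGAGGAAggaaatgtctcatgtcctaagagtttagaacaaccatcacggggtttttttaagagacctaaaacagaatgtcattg

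The Tlr2 window held 2 overlapping NF-kB matches that began 173 and 172 bases before the start, and the Tlr3 window held 2 NF-kB matches, at 211 and 23 bases. The Tlr9 window held an AP-1 match at 58 bases and a PU.1 match at 112 bases. The Tlr13 window held a PU.1 match alone, at 83 bases. Among 32851 RefSeq promoter windows of this length, 45.8% held the NF-kB motif, 3.0% the interferon element, 6.7% the AP-1 motif and 23.3% the PU.1 motif. Of the windows not shown, those of Tlr1 held no NF-kB match, though Tlr1 rose with LPS in both arms. For Tlr6, which also rose, 1 window held 2 matches to the interferon element and another held 1 NF-kB match. The Tlr8 window held a PU.1 match alone. A match describes these letters only, and the NF-kB pattern is common. Whether any motif goes with the LPS response was not tested.

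Depth was 8174951 to 13331945 counts per library over the table of symbols. Each of 5 LPS response genes (Tnf, Il1b, Il6, Cxcl10 and Ifnb1) passed the test as higher with LPS in both arms, and each of 4 LXR targets (Abca1, Abcg1, Srebf1 and Mylip) as higher with GW3965 in both arms. Dot1l mRNA passed in none of the 9 comparisons, and the inhibitor acts on the enzyme rather than on its transcript. Macrophage markers summed to 12130 to 19110 CPM (TMM-scaled counts relative to library size) per library, and all 8 of that list were detected. Markers of neutrophils and their precursors were lower with the inhibitor: the 9 genes summed to 2.08 to 7.77 CPM in SGC0946 and 30.96 to 41.57 CPM in DMSO, 15.4 to 20.8 CPM in SGC0946+LPS and 55.1 to 65.5 CPM in DMSO+LPS, and 2.66 to 5.09 CPM in SGC0946+GW3965 and 27.7 to 41.0 CPM in DMSO+GW3965. Dendritic cell markers summed to 0.750 to 4.61 CPM, stromal and endothelial ones to at most 14.5 CPM, T and NK cell ones to at most 0.928 CPM, mast cell ones to at most 0.347 CPM and erythroid ones to at most 0.24 CPM. Without SGC0946 replicates 2 and 4, which leaves 2 libraries in that arm, 321 genes were called for the inhibitor in unstimulated cells, against 1048 with them; no other pair was left out. The word reanalyzed stands in the titles of 6 libraries, namely replicates 1 to 3 of DMSO and of DMSO+GW3965. Under GW3965 that word cannot be told apart from the inhibitor, and in unstimulated cells only in part, since DMSO replicate 4 lacks it. No LPS library carries it, so LPS against unstimulated DMSO cells also sets libraries without it against libraries most of which have it.

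**Figure D1:**
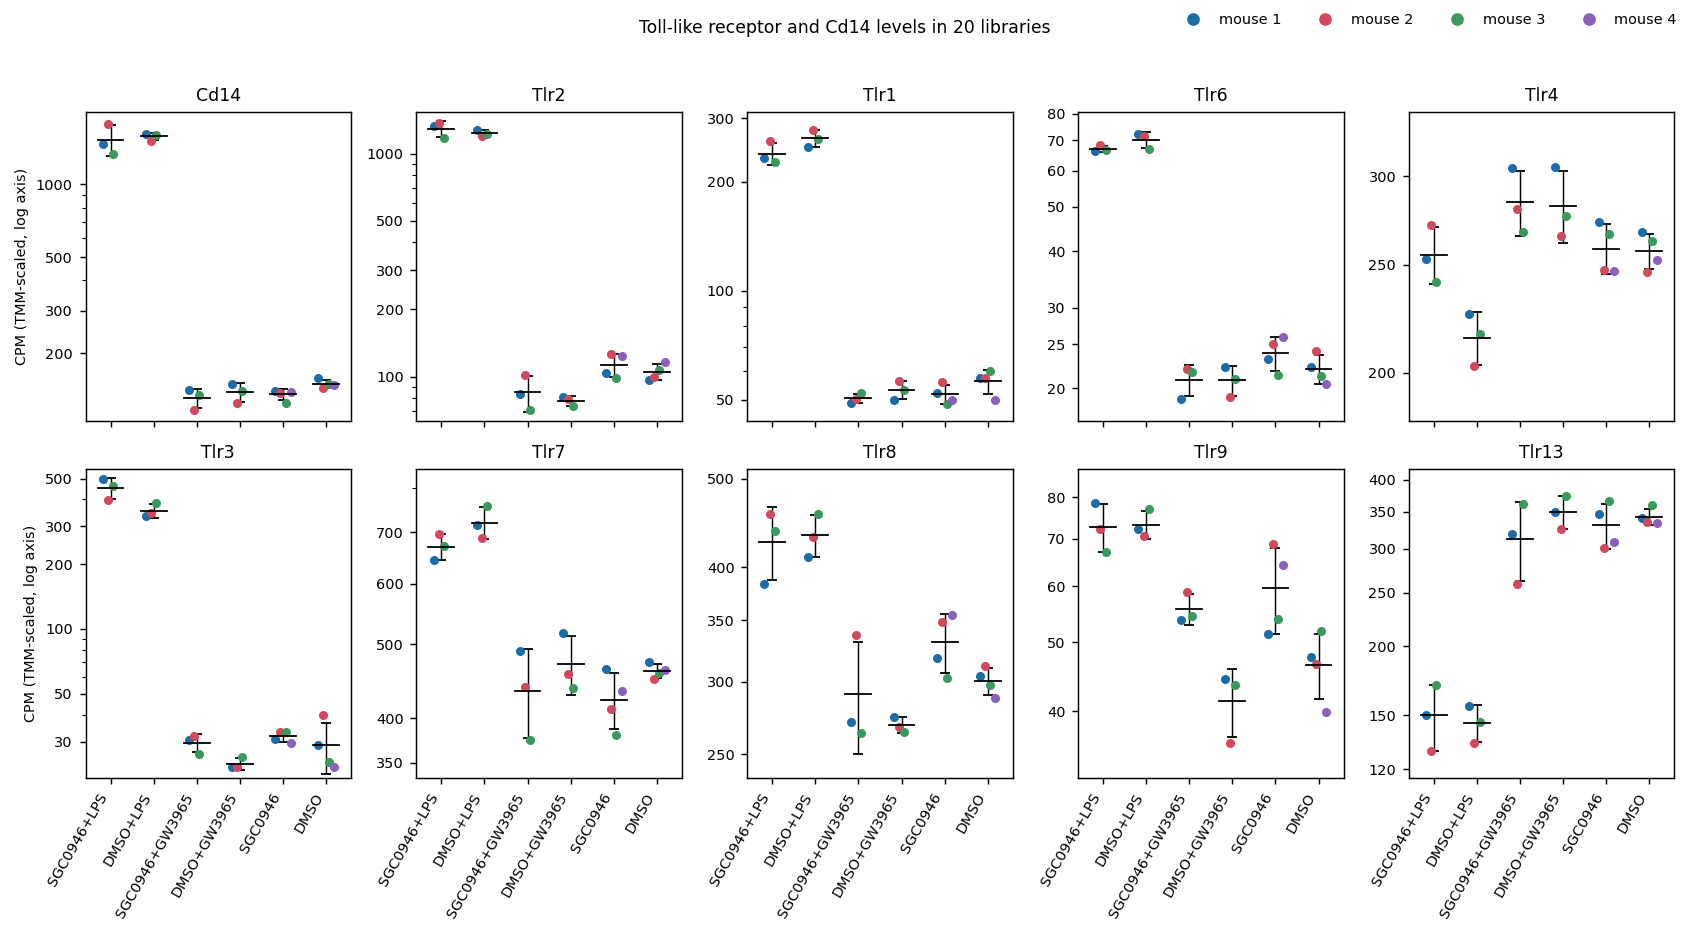
Level of each gene in every library, in CPM on log axes that differ between panels. Points are libraries coloured by mouse, horizontal lines are group means and bars 1 SD (n = 3 with LPS or GW3965, n = 4 unstimulated). Cd14, Tlr2 and Tlr3 stand about an order of magnitude higher with LPS, Tlr13 stands lower, and Tlr4 spans 202.7 to 305.7 CPM over all 20 libraries.

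All 10 genes were expressed in unstimulated macrophages, and the RNA sensor gene Tlr7 was the most abundant per length. Levels between genes are compared here as RPKM, the length-adjusted read level that the authors deposited. In unstimulated DMSO cells (n = 4, mean ± SD) Tlr7 stood at 119 ± 4.00 RPKM, Cd14 at 91.3 ± 4.82 RPKM and Tlr13 at 86.5 ± 2.88 RPKM. The libraries of Cd14 and Tlr13 overlapped in range, so this pair is not ordered beyond its spread.
Tlr8 followed at 60.3 ± 2.94 RPKM. Tlr2 at 37.3 ± 2.58 RPKM and Tlr4 at 33.0 ± 1.5 RPKM overlapped slightly. Tlr1 stood at 18.9 ± 1.58 RPKM and Tlr9 at 13.6 ± 1.48 RPKM, without overlap. Tlr6 at 8.58 ± 0.728 RPKM and Tlr3 at 6.79 ± 1.90 RPKM were the lowest pair and overlapped.

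With LPS the order was headed by Cd14, at 545 ± 82.8 RPKM in SGC0946+LPS and 594 ± 17.2 RPKM in DMSO+LPS (n = 3 each). Tlr2 came next, at 268 ± 24.6 RPKM in SGC0946+LPS and 270 ± 9.85 RPKM in DMSO+LPS. Tlr7 came after Tlr2 in both arms, at 101 ± 3.62 RPKM in SGC0946+LPS and 114 ± 3.83 RPKM in DMSO+LPS. Tlr9 was at the bottom in both arms, at 12.4 ± 1.11 RPKM in SGC0946+LPS and 13.2 ± 0.398 RPKM in DMSO+LPS. Tlr4, the LPS receptor gene, stood at 19.1 ± 1.23 RPKM in SGC0946+LPS and 17.0 ± 0.909 RPKM in DMSO+LPS, far below its partner gene Cd14. RPKM divides by the library total, so these levels rank genes within a group and are not compared between stimuli.

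LPS for 3 h raised the genes for the surface receptors of lipopeptides, the CD14 gene and Tlr3, and lowered Tlr13, in macrophages grown with SGC0946 and with DMSO alike. In SGC0946 cells 8 of the 10 genes were higher and 1 lower with LPS, and in DMSO cells 8 were higher and 2 lower (edgeR quasi-likelihood test, p adjusted by Benjamini-Hochberg across all genes tested, threshold 0.05). LPS moved most genes: 74.6% of all genes tested were called in SGC0946 cells (35.8% higher, 38.8% lower) and 74.1% in DMSO cells (35.4% higher, 38.7% lower). Being called was thus the common outcome, and the sizes of the changes follow. The median log2 change of the 10 genes was 1.08 in SGC0946 cells and 1.16 in DMSO cells, beside -0.07 for all genes in each arm.

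These log2 values rest on TMM scaling, whose factors were 0.686 to 0.716 in LPS libraries and 1.14 to 1.19 in the others. Scaling by library totals alone shifted the median of all genes to -0.81 in SGC0946 cells and -0.80 in DMSO cells. The calls of all genes were then 1977 higher and 8699 lower in SGC0946 cells, against 4296 and 4666 with TMM, and 1980 higher and 8674 lower in DMSO cells, against 4253 and 4650. Cd14, Tlr1, Tlr2, Tlr3 and Tlr6 stayed higher and Tlr13 lower in both arms under either scaling. The changes of Tlr7, Tlr8 and Tlr9 turned their sign, though they stayed above the shifted median of all genes. Tlr8 in both arms and Tlr9 in SGC0946 cells then passed as lower, while Tlr7 in both arms and Tlr9 in DMSO cells lay near 0 and did not pass.

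Cd14 had 1473, 1778 and 1338 CPM in SGC0946+LPS (replicates 1 to 3 in this and later lists), against 139.8, 137.1, 124.6 and 138.3 CPM in SGC0946 (replicates 1 to 4). It had 1614, 1517 and 1604 CPM in DMSO+LPS, against 157.7, 143.4, 149.6 and 147.2 CPM in DMSO. Every LPS library thus lay far above every unstimulated one. The log2 change was 3.50 ± 0.09 (SE) in SGC0946 cells and 3.40 ± 0.09 in DMSO cells (edgeR adjusted p = 2.95e-19 and 4.58e-19).

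Tlr2, the shared partner in lipopeptide sensing, had 1330, 1376 and 1172 CPM in SGC0946+LPS, against 103.3, 125.8, 98.9 and 123.3 CPM in SGC0946. It had 1278, 1207 and 1222 CPM in DMSO+LPS, against 96.4, 100.0, 107.3 and 116.6 CPM in DMSO. The groups were again far apart. The change came to 11.4-fold in SGC0946 cells and 11.8-fold in DMSO cells (log2 3.52 ± 0.11 and 3.56 ± 0.11 SE, edgeR adjusted p = 6.11e-18 and 5.26e-18).

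Its pairing partners rose less. Tlr1 averaged 239 ± 17.2 CPM in SGC0946+LPS and 51.7 ± 3.16 CPM in SGC0946, a 4.63-fold change, and 264 ± 14.3 CPM in DMSO+LPS and 56.2 ± 4.38 CPM in DMSO, a 4.70-fold change (SD, edgeR adjusted p = 5.2e-18 and 3.69e-18). Tlr6 averaged 67.1 ± 1.07 CPM in SGC0946+LPS and 23.9 ± 2.02 CPM in SGC0946, a 2.80-fold change, and 70.2 ± 2.84 CPM in DMSO+LPS and 22.01 ± 1.60 CPM in DMSO, a 3.19-fold change (edgeR adjusted p = 1.4e-13 and 1.59e-14). Tlr1 and Tlr6 are close paralogs: 15.3% of the 50-base stretches of Tlr1 also occur in Tlr6 and 12.6% of those of Tlr6 in Tlr1, and how the counting treated reads from these stretches is not given in the sources. Because Tlr1 is the more abundant of the pair, reads of Tlr1 could make up a larger share of the Tlr6 counts than that percentage, so the level and the LPS change of Tlr6 are uncertain.

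Tlr3, the sensor of double-stranded RNA, was among the 3 genes with the steepest log2 changes in both arms, with Tlr2 and Cd14, and the order of Tlr3 and Tlr2 in DMSO cells is not beyond their errors. It had 497.4, 395.8 and 463.7 CPM in SGC0946+LPS, against 30.7, 33.3, 33.3 and 29.7 CPM in SGC0946. It had 333.5, 346.7 and 385.4 CPM in DMSO+LPS, against 28.8, 39.98, 24.0 and 22.8 CPM in DMSO. The change was 14.3-fold in SGC0946 cells and 12.2-fold in DMSO cells (log2 3.83 ± 0.13 and 3.61 ± 0.13 SE, edgeR adjusted p = 3.63e-17 and 1.03e-16). An antisense gene, Gm45542, overlaps 7.3% of the exon bases of Tlr3, and the sources used here do not say whether the counting used strand.

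The other endosomal receptors moved much less or the other way. Tlr7 averaged 671 ± 26.4 CPM in SGC0946+LPS and 423 ± 35.3 CPM in SGC0946, and 720 ± 34.7 CPM in DMSO+LPS and 461 ± 9.98 CPM in DMSO. Its log2 change was 0.67 ± 0.08 in SGC0946 cells and 0.64 ± 0.08 in DMSO cells with TMM scaling (edgeR adjusted p = 1.33e-07 and 2.19e-07), and -0.07 and -0.09 with library totals alone.
Tlr8, whose product in mice has a debated ligand, changed by 0.37 ± 0.08 in SGC0946 cells and 0.53 ± 0.08 in DMSO cells with TMM scaling (edgeR adjusted p = 0.000296 and 3.4e-06), and by -0.38 and -0.20 with library totals alone. Tlr9 changed by 0.29 ± 0.10 in SGC0946 cells, where the groups overlapped, and by 0.65 ± 0.10 in DMSO cells, where they did not (edgeR adjusted p = 0.0129 and 4.16e-06). With library totals alone the Tlr9 changes were -0.45 and -0.08. Without SGC0946+LPS replicate 1, the change of Tlr9 in SGC0946 cells was 0.23 and did not pass (edgeR adjusted p = 0.0798).

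Tlr13, the sensor of bacterial ribosomal RNA, was lower in every LPS library than in any unstimulated one. It had 150.3, 129.5 and 170.3 CPM in SGC0946+LPS, against 347.3, 301.2, 366.7 and 308.5 CPM in SGC0946. It had 156.2, 133.9 and 145.7 CPM in DMSO+LPS, against 341.6, 335.3, 360.1 and 334.4 CPM in DMSO. The groups were well apart, with log2 changes of -1.14 ± 0.10 in SGC0946 cells and -1.24 ± 0.10 in DMSO cells (edgeR adjusted p = 1.61e-09 and 4.22e-10), and of -1.88 and -1.97 with library totals alone.

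Tlr4, the LPS receptor itself, changed least of the 10 genes with TMM scaling. It had 252.9, 271.0 and 241.4 CPM in SGC0946+LPS, against 272.9, 247.4, 266.3 and 246.9 CPM in SGC0946, and these groups overlapped. It had 226.0, 202.7 and 216.6 CPM in DMSO+LPS, against 267.3, 246.4, 262.3 and 252.5 CPM in DMSO, and these did not. The log2 change was -0.02 ± 0.06 in SGC0946 cells, which did not pass (95% interval -0.15 to 0.12, edgeR adjusted p = 0.809), and -0.26 ± 0.06 in DMSO cells (edgeR adjusted p = 0.00109). With library totals alone both arms passed, at -0.76 in SGC0946 cells and -0.99 in DMSO cells. The fall in DMSO cells was -0.23 and did not pass when the libraries titled reanalyzed were left out (edgeR adjusted p = 0.0517), which leaves 1 unstimulated DMSO library.

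**Figure D2:**
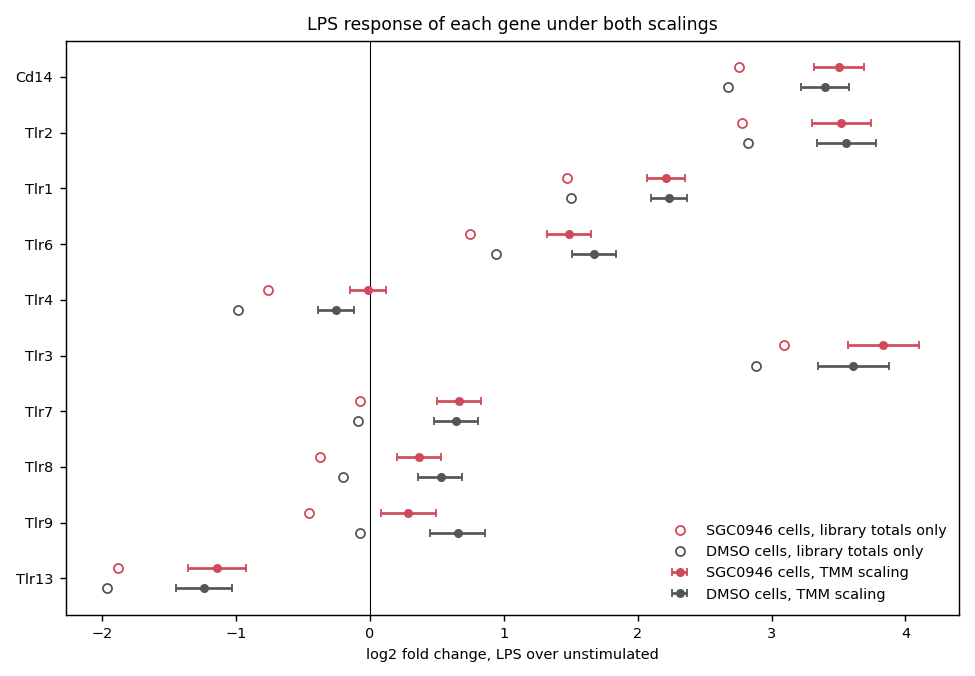
Log2 fold change of each gene with LPS over unstimulated cells. Filled points with bars are TMM-scaled edgeR estimates with 95% intervals in SGC0946 cells (red, upper) and DMSO cells (grey, lower), and open points are the same estimates scaled by library totals alone. Every open point lies to the left of its filled partner; those of Tlr7, Tlr8 and Tlr9 fall on the other side of 0.

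The inhibitor moved few of the 10 genes, and where a gene passed the test its change was small, 1.187- to 1.345-fold. In each condition 1 of the 10 genes was called, in every case as higher with SGC0946: Tlr9 in unstimulated cells, Tlr4 with LPS and Tlr9 with GW3965. Of all genes tested, 8.72% were called in unstimulated cells (4.55% higher, 4.18% lower), 7.13% with LPS (3.86% higher, 3.26% lower) and 3.64% with GW3965 (2.24% higher, 1.4% lower). A count of 1 in 10 is near that background. The median log2 effect over the 10 genes was 0.06 in unstimulated cells, -0.02 with LPS and 0.01 with GW3965, beside medians of 0 for all genes. In these bulk cultures fewer cells of a type and less RNA per cell cannot be told apart. The neutrophil markers given above also differ between the arms in all 3 conditions, and their part in these results was not tested.

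Tlr9, the receptor for CpG DNA, had 51.3, 68.7, 54.0 and 64.3 CPM in unstimulated SGC0946 cells, against 47.7, 46.7, 51.8 and 39.9 CPM in unstimulated DMSO cells. SGC0946 replicates 2 and 4 were the high ones, and SGC0946 replicate 1 lay just under DMSO replicate 3. The log2 effect was 0.36 ± 0.09 (95% interval 0.17 to 0.55, edgeR adjusted p = 0.0148). Within mice 1 to 4 the difference was 0.11, 0.56, 0.06 and 0.69, so it was positive in 4 of 4 mice and larger in mice 2 and 4.

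That call ended in 3 of 8 single-library removals, while the effect ranged from 0.285 to 0.425 over the 8. Without SGC0946 replicate 2, SGC0946 replicate 4 or DMSO replicate 4 the Tlr9 effect was 0.29, 0.32 and 0.29, and edgeR adjusted p was 0.0732, 0.0626 and 0.0696. Without SGC0946 replicates 2 and 4 together the effect was 0.18 (edgeR adjusted p = 0.424). Without the libraries titled reanalyzed, which leaves DMSO replicate 4 as the lone unstimulated control, assumed to vary like the other groups, the effect was larger at 0.58 (edgeR adjusted p = 0.0665).

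Under GW3965, Tlr9 had 53.7, 58.8 and 54.5 CPM in SGC0946+GW3965, against 44.3, 36.1 and 43.6 CPM in DMSO+GW3965. These groups did not overlap, and the log2 effect of 0.43 ± 0.11 passed the test (95% interval 0.21 to 0.65, edgeR adjusted p = 0.0271). It was positive in 3 of 3 mice, at 0.28, 0.70 and 0.32. Leaving out SGC0946+GW3965 replicate 2, DMSO+GW3965 replicate 2 or DMSO+GW3965 replicate 3 ended the call (edgeR adjusted p = 0.113, 0.150 and 0.0524). With LPS the effect on Tlr9 was -0.01 ± 0.11 (95% interval -0.23 to 0.22, edgeR adjusted p = 0.985).

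Plasmacytoid dendritic cells and B cells are known for high Tlr9 expression. The 5 plasmacytoid markers, of which 2 passed the filter and Ly6d was at 0 in all 20 libraries, summed to 122 to 158 CPM in SGC0946 and 127 to 149 CPM in DMSO, and to 103 to 164 CPM in SGC0946+GW3965 and 120 to 135 CPM in DMSO+GW3965. The 5 B cell markers, of which 1 passed and Pax5 was at 0 in all 20 libraries, summed to 4.25 to 6.27 CPM in SGC0946 and 3.68 to 5.37 CPM in DMSO, and to 4.45 to 5.64 CPM in SGC0946+GW3965 and 3.88 to 4.96 CPM in DMSO+GW3965. Both sums overlapped between the arms in both of these conditions. With LPS the plasmacytoid sum was 534 to 560 CPM in SGC0946+LPS and 428 to 506 CPM in DMSO+LPS, without overlap. The B cell sum with LPS overlapped, at 2.39 to 4.39 CPM in SGC0946+LPS and 2.13 to 2.91 CPM in DMSO+LPS. Whether such cells bear on the Tlr9 levels was not tested. Each sum was nearly all 1 gene. Tcf4 stood at 103 to 558 CPM over the 20 libraries, while Siglech reached at most 0.122 CPM, Pacsin1 0.854 CPM and Ccr9 2.05 CPM. Cd79b stood at 2.13 to 6.13 CPM, while Cd79a reached at most 0.271 CPM and Ms4a1 0.277 CPM. Of the markers named here, none but Tcf4 and Cd79b exceeded 2.05 CPM in any library.

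Tlr4 was higher with the inhibitor in LPS-treated cells: the 3 SGC0946+LPS libraries at 241.4 to 271.0 CPM all lay above the 3 DMSO+LPS libraries at 202.7 to 226.0 CPM. The log2 effect was 0.25 ± 0.07 (95% interval 0.10 to 0.39, edgeR adjusted p = 0.0319), and the difference within mice 1 to 3 was 0.16, 0.42 and 0.16. In unstimulated cells the effect was 0.01 (95% interval -0.11 to 0.13), and with GW3965 it was 0.01 (95% interval -0.13 to 0.15). The call with LPS ended without DMSO+LPS replicate 2 or 3, or without SGC0946+LPS replicate 1 or 2 (edgeR adjusted p = 0.167, 0.0716, 0.0609 and 0.130, with effects of 0.20 to 0.25). It also ended with no filter on low counts (edgeR adjusted p = 0.0606) and when the 2 groups were fitted alone (edgeR adjusted p = 0.0501).

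Tlr3 showed a similar separation with LPS without passing the test. The 395.8 to 497.4 CPM of SGC0946+LPS lay above the 333.5 to 385.4 CPM of DMSO+LPS, with a log2 effect of 0.35 ± 0.12 (95% interval 0.09 to 0.60, edgeR adjusted p = 0.0915). The difference within mice 1 to 3 was 0.58, 0.19 and 0.27. With the mouse as a replicate block it passed (0.35, edgeR adjusted p = 0.0483), and likewise when the 2 groups were fitted alone (0.36, edgeR adjusted p = 0.036).
Under GW3965 the Tlr3 groups did not overlap either, at 26.4 to 31.9 CPM in SGC0946+GW3965 and 22.7 to 25.4 CPM in DMSO+GW3965 (log2 effect 0.33 ± 0.15, edgeR adjusted p = 0.300). In unstimulated cells the effect was 0.13 ± 0.13 (edgeR adjusted p = 0.603), where DMSO replicate 2 was the highest of the 8 libraries at 39.98 CPM. Without that library the effect was 0.33 and passed (edgeR adjusted p = 0.0442).

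Cd14 had 139.8, 137.1, 124.6 and 138.3 CPM in unstimulated SGC0946 cells, against 157.7, 143.4, 149.6 and 147.2 CPM in DMSO cells. The groups did not overlap, and the difference was negative in 4 of 4 mice, yet the log2 effect of -0.15 ± 0.08 did not pass (95% interval -0.31 to 0.02, edgeR adjusted p = 0.279). With LPS the effect on Cd14 was -0.05 (95% interval -0.23 to 0.14). For Tlr2 the intervals of the inhibitor's effect ran from -0.09 to 0.30 in unstimulated cells, from -0.16 to 0.29 with LPS and from -0.10 to 0.37 with GW3965. Tlr1, Tlr6, Tlr7, Tlr8 and Tlr13 had effects between -0.16 and 0.14 in the 3 conditions, and none passed.

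**Figure D3:**
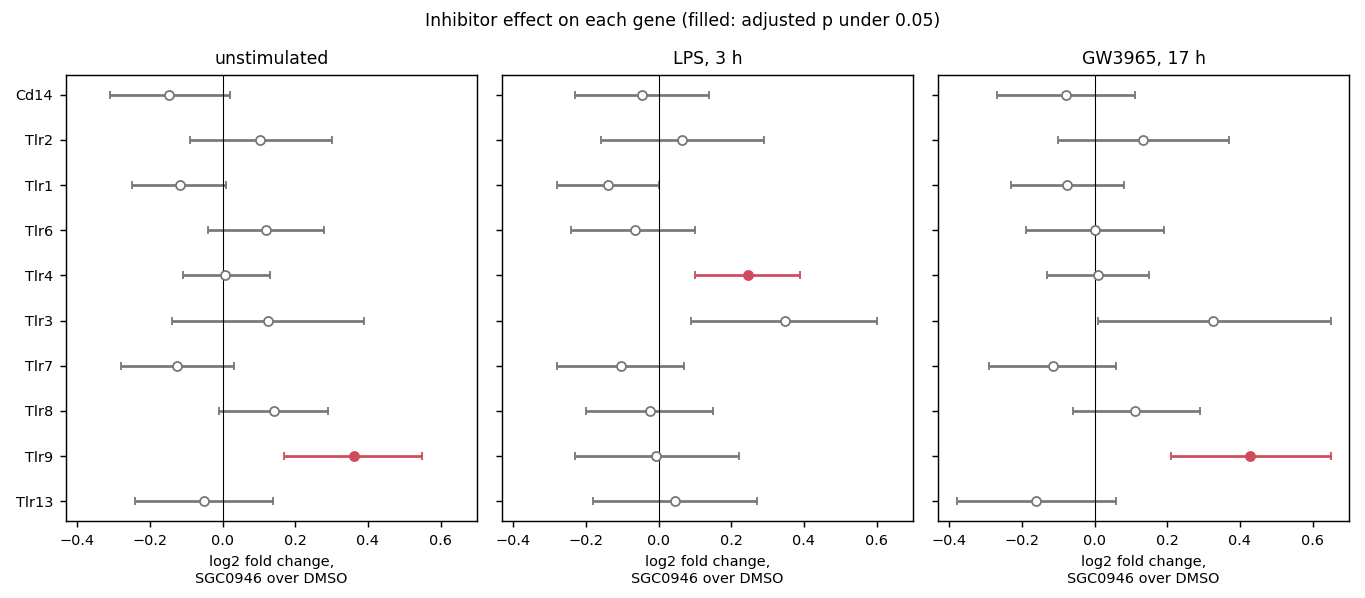
Log2 fold change of SGC0946 over DMSO for each gene in unstimulated, LPS-treated and GW3965-treated cells, with 95% intervals from edgeR. Filled red points passed at an adjusted p under 0.05: Tlr9 in unstimulated cells at 0.36, Tlr4 with LPS at 0.25 and Tlr9 with GW3965 at 0.43; the remaining points are open.

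Whether the inhibitor changed a response was tested directly, as the response in SGC0946 cells minus that in DMSO cells. None of the 10 genes passed for LPS, where 0.00832% of all genes (1 gene) was called. None passed for GW3965, where 0% of all genes was called by edgeR and 291 stood at an unadjusted p under 0.05. For LPS, 2 of the 10 genes stood at an unadjusted p under 0.05, as did 835 of all genes. They were Tlr4, whose response was 0.24 ± 0.09 higher in SGC0946 cells (95% interval 0.05 to 0.43, edgeR adjusted p = 0.523), and Tlr9, whose response was lower by a log2 difference of -0.37 ± 0.14 (95% interval -0.66 to -0.08, edgeR adjusted p = 0.541). For Cd14 the difference was 0.10 (95% interval -0.14 to 0.35) and for Tlr2 -0.04 (95% interval -0.34 to 0.26), intervals that are small beside responses of over 3 on the log2 scale.

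**Figure D4:**
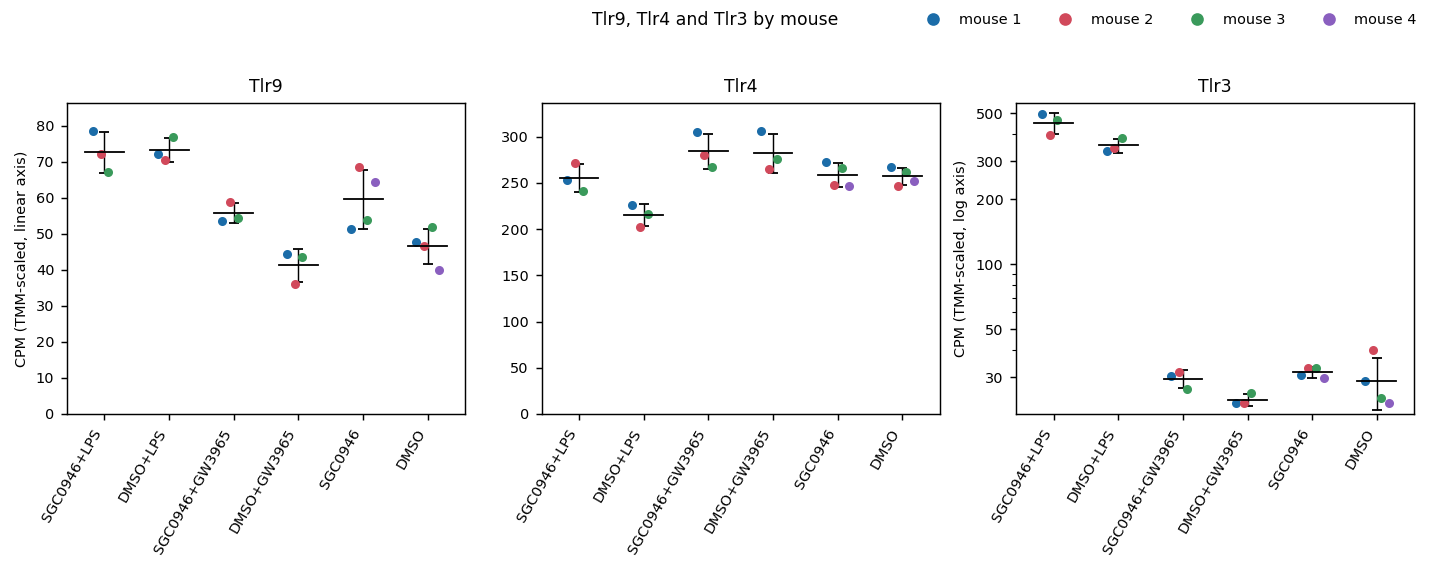
CPM of Tlr9 and Tlr4 (linear axes from 0) and of Tlr3 (log axis) in the 20 libraries by group, coloured by mouse, with group means and SD. The SGC0946+LPS libraries of Tlr4 and Tlr3 lie above the DMSO+LPS ones, and for Tlr9 mice 2 and 4 lie highest among unstimulated SGC0946 cells.

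The LXR agonist GW3965 lowered Tlr2 in both arms, to 0.756 of its level in SGC0946 cells and 0.742 in DMSO cells, and none of the other 9 genes passed. LXR agonists are known to restrain inflammatory genes in macrophages. Of all genes tested 2.42% were called in SGC0946 cells (1.32% higher, 1.11% lower) and 2.55% in DMSO cells (1.35% higher, 1.2% lower). Tlr2 had 83.9, 101.7 and 70.4 CPM in SGC0946+GW3965, against 103.3, 125.8, 98.9 and 123.3 CPM in SGC0946, and 80.9, 79.4 and 73.4 CPM in DMSO+GW3965, against 96.4, 100.0, 107.3 and 116.6 CPM in DMSO. The SGC0946 groups overlapped through SGC0946+GW3965 replicate 2, and the DMSO groups did not overlap.
The log2 change was -0.40 ± 0.11 in SGC0946 cells and -0.43 ± 0.11 in DMSO cells (edgeR adjusted p = 0.0435 and 0.0296). The calls were thin. In SGC0946 cells leaving out SGC0946+GW3965 replicate 1 or 3, or SGC0946 replicate 2 or 4, ended the call (edgeR adjusted p = 0.171, 0.225, 0.143 and 0.147), and without SGC0946 replicates 2 and 4 together the change was -0.24 (edgeR adjusted p = 0.481). In DMSO cells each single removal did so except that of DMSO replicate 1 (changes of -0.47 to -0.38, edgeR adjusted p = 0.0384 to 0.154). Cd14 changed by -0.05 ± 0.09 in SGC0946 cells and -0.12 ± 0.09 in DMSO cells, and Tlr4 by 0.14 ± 0.06 in both, with none of these passing (edgeR adjusted p = 0.861, 0.550, 0.325 and 0.285).

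Many genes for the proteins that escort and wire these receptors also passed the test with LPS, as did most genes tested. Of these 44 genes, 28 were higher and 10 lower in SGC0946 cells, and 30 higher and 8 lower in DMSO cells. Of all genes tested, 35.8% were higher and 38.8% lower in SGC0946 cells, and 35.4% higher and 38.7% lower in DMSO cells. Among 6 accessory proteins at the cell surface, 3 were higher with LPS in SGC0946 cells and 4 in DMSO cells, and none was lower. Ly96, which encodes the MD-2 partner of TLR4, averaged 33.2 ± 7.53 CPM in SGC0946+LPS and 13.7 ± 1.98 CPM in SGC0946, and 30.7 ± 0.865 CPM in DMSO+LPS and 13.1 ± 1.67 CPM in DMSO (SD; edgeR adjusted p = 3.45e-08 and 7e-08). Cd180, a Toll-like receptor homolog, changed by 0.92 ± 0.12 in SGC0946 cells and 1.05 ± 0.12 in DMSO cells (edgeR adjusted p = 7.12e-07 and 8.99e-08), though with library totals alone its change in SGC0946 cells was 0.18 and did not pass. With library totals alone 1 of the 6 was higher and 2 lower in SGC0946 cells, and 2 higher and 2 lower in DMSO cells.

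Of the 5 adaptors that passed the filter, out of 6 listed, 4 were higher with LPS in each arm. Myd88, the adaptor shared by most of the family, averaged 365 ± 38.3 CPM in SGC0946+LPS and 69.5 ± 4.03 CPM in SGC0946, and 387 ± 17.5 CPM in DMSO+LPS and 69.2 ± 1.64 CPM in DMSO (log2 2.39 ± 0.06 and 2.49 ± 0.06, edgeR adjusted p = 4.42e-19 and 2.37e-19). Pik3ap1, an adaptor that links the receptors to phosphoinositide 3-kinase, changed by 1.87 ± 0.08 in SGC0946 cells and 1.82 ± 0.08 in DMSO cells. Ticam1, which encodes the adaptor TRIF of TLR3 and TLR4, was the exception, lower with LPS in SGC0946 cells at -0.37 ± 0.08 (edgeR adjusted p = 0.000355). Under library totals 2 adaptors were higher and 3 lower in each arm.

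Of 16 kinases and ubiquitin ligases, 11 were higher in each arm with LPS, while 5 were lower in SGC0946 cells and 4 in DMSO cells. Peli1, a ubiquitin ligase of the pathway, changed by 4.30 ± 0.08 in SGC0946 cells and 4.49 ± 0.08 in DMSO cells, and the kinase gene Irak2 by 3.26 ± 0.07 and 3.34 ± 0.07. Irak4, the kinase that sits first on MyD88, went the other way, at -0.79 ± 0.08 in SGC0946 cells and -0.81 ± 0.08 in DMSO cells. Tab1, a partner of the kinase TAK1, changed by -1.91 ± 0.15 in SGC0946 cells and -1.35 ± 0.14 in DMSO cells. Scaled by library totals, 5 were higher and 9 lower in each arm.

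The 10 inhibitors of the pathway held its steepest responses among the genes named here: 7 were higher and 1 lower with LPS in SGC0946 cells, and 8 higher and 1 lower in DMSO cells. Tnfaip3, which encodes the ubiquitin-editing enzyme A20, averaged 2193 ± 83.6 CPM in SGC0946+LPS and 32.5 ± 3.11 CPM in SGC0946, and 2141 ± 83.7 CPM in DMSO+LPS and 34.0 ± 3.22 CPM in DMSO. Nfkbia, which encodes the NF-kB inhibitor IkB-alpha, changed by 5.16 ± 0.07 in SGC0946 cells and 4.94 ± 0.07 in DMSO cells. Sigirr, an inhibitory receptor, was lower, at -1.29 ± 0.18 in SGC0946 cells and -1.11 ± 0.17 in DMSO cells. With library totals alone 5 were higher and 5 lower in SGC0946 cells, and 5 higher and 4 lower in DMSO cells.

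Among 6 folding, transport and lysosomal partners, 3 were higher and 2 lower in each arm with LPS. Slc15a3, a lysosomal peptide and histidine transporter, changed by 2.24 ± 0.07 in SGC0946 cells and 2.51 ± 0.07 in DMSO cells. Slc15a4, a related transporter known for its part in TLR7 and TLR9 signalling, was lower at -1.12 ± 0.09 and -0.56 ± 0.08, as was the receptor chaperone gene Cnpy3 at -0.64 ± 0.09 in both arms. Hsp90b1, the chaperone that Cnpy3 assists, was higher at 0.29 ± 0.09 in SGC0946 cells and 0.28 ± 0.09 in DMSO cells, and Unc93b1, which carries nucleic acid-sensing receptors to endosomes, at 0.26 ± 0.10 and 0.34 ± 0.10. In SGC0946 cells the Hsp90b1 call ended without SGC0946+LPS replicate 3 (0.17, edgeR adjusted p = 0.0703). It also ended without SGC0946 replicates 2 and 4 (0.21, edgeR adjusted p = 0.0731). With library totals alone Hsp90b1 turned to -0.44 in SGC0946 cells and Unc93b1 to -0.39 in DMSO cells, and 1 of the 6 was then higher and 5 lower in each arm. Tlr5, the flagellin receptor gene, was scarce and lower with LPS, at 0.536 ± 0.308 CPM in SGC0946+LPS and 2.41 ± 0.278 CPM in SGC0946, and 0.738 ± 0.344 CPM in DMSO+LPS and 1.78 ± 0.873 CPM in DMSO (SD; edgeR adjusted p = 0.000809 and 0.0191). The Tlr5 call in DMSO cells ended without DMSO replicate 2, DMSO+LPS replicate 1 or DMSO+LPS replicate 2 (edgeR adjusted p = 0.0714, 0.0511 and 0.113). Its counts reached at most 7 in an SGC0946+LPS library and 8 in a DMSO+LPS library. Tlr11, Tlr12 and the adaptor gene Sarm1 did not pass the filter.

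**Figure D5:**
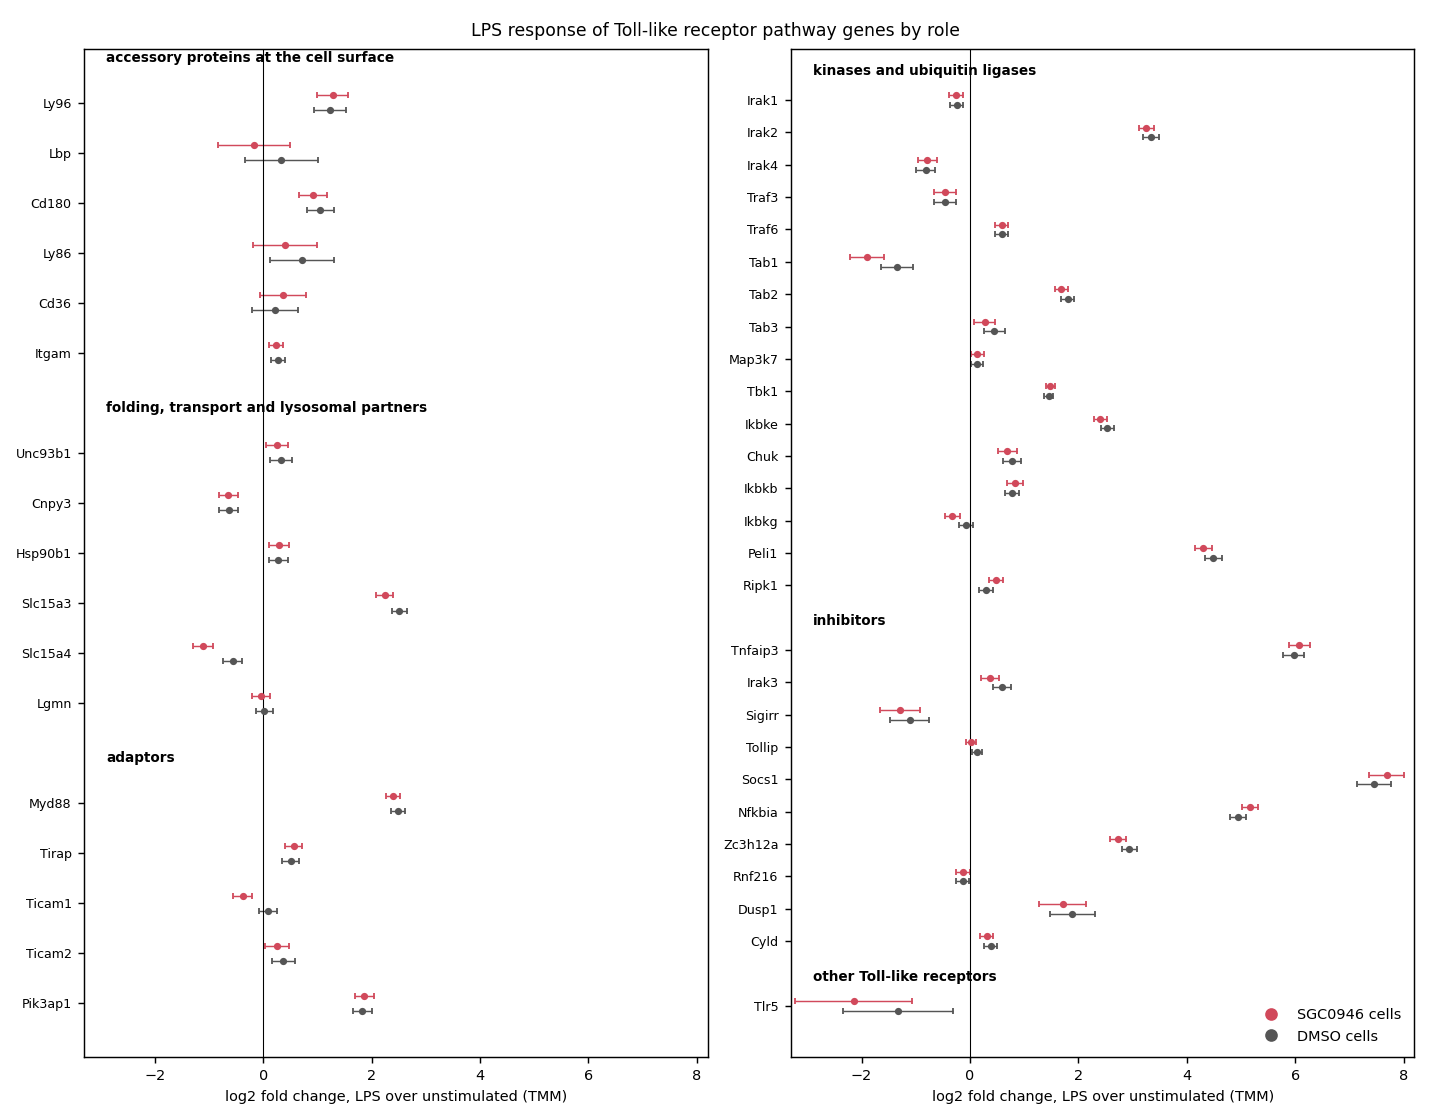
Log2 fold change with LPS over unstimulated cells for the pathway genes that passed the filter, grouped by role, in SGC0946 cells (red, upper) and DMSO cells (grey, lower), with 95% intervals from TMM-scaled edgeR fits. Inhibitors such as Tnfaip3 and Nfkbia reach about 5 to 6 and Socs1 lies farthest right, while Tab1, Sigirr and Slc15a4 lie left of 0. Estimates with library totals alone are not drawn. With them Hsp90b1 was at -0.44 in SGC0946 cells and Unc93b1 at -0.39 in DMSO cells.

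The inhibitor moved few pathway genes. Of the 44 listed that passed the filter, 1 was called higher and 1 lower in unstimulated cells. There 8.72% of all genes were called (4.55% higher, 4.18% lower). With LPS 4 of the 44 were lower and none higher, where 7.13% of all genes were called (3.86% higher, 3.26% lower). None of the 44 passed with GW3965, where 3.64% of all genes did. The 4 lower calls with LPS are a small count, and nothing about the pathway as a whole is read from them. Slc15a4 had 36.7, 38.3 and 31.4 CPM in SGC0946+LPS, against 62.3, 56.0 and 48.9 CPM in DMSO+LPS. The groups did not overlap, and the log2 effect was -0.64 ± 0.10 (edgeR adjusted p = 0.000278).
Ticam1 had 32.6, 26.9 and 27.7 CPM in SGC0946+LPS, against 39.7, 37.6 and 40.4 CPM in DMSO+LPS, again without overlap (-0.43 ± 0.09, edgeR adjusted p = 0.00519). The Slc15a4 and Ticam1 effects passed without any single library. Irak3, which encodes a kinase-like brake on signalling, changed by -0.34 ± 0.09 and Tollip, another brake, by -0.20 ± 0.05 (edgeR adjusted p = 0.0171 and 0.0153). The Irak3 call ended without DMSO+LPS replicate 2 or 3 or SGC0946+LPS replicate 3 (edgeR adjusted p = 0.0692, 0.0638 and 0.0756), and the Tollip call without DMSO+LPS replicate 2 (edgeR adjusted p = 0.0777).

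In unstimulated cells Itgam, the alpha chain of the integrin CR3 that can bind LPS and also one of the macrophage markers, averaged 899 ± 43.0 CPM in SGC0946 and 755 ± 31.5 CPM in DMSO (0.25 ± 0.06, edgeR adjusted p = 0.00981). Nfkbia averaged 34.3 ± 2.20 CPM in SGC0946 and 40.8 ± 1.75 CPM in DMSO (-0.25 ± 0.07, edgeR adjusted p = 0.0213). Without the libraries titled reanalyzed, with 1 unstimulated DMSO library left, the effects were larger in size, 0.34 and -0.32, and neither passed (edgeR adjusted p = 0.114 and 0.224). Without SGC0946 replicates 2 and 4 the Itgam effect was 0.20 (edgeR adjusted p = 0.171). The Nfkbia call also ended without DMSO replicate 3, DMSO replicate 4 or SGC0946 replicate 3 (edgeR adjusted p = 0.0558, 0.0767 and 0.0663). None of the 44 pathway genes passed for a difference of LPS or GW3965 response between the arms.

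Of the 44 pathway genes, GW3965 raised 1 and lowered 2 in SGC0946 cells, and raised 1 and lowered 1 in DMSO cells. Of all genes tested, 1.32% were higher and 1.11% lower in SGC0946 cells, and 1.35% higher and 1.2% lower in DMSO cells. Counts this small are not read as a result about the pathway. In SGC0946 cells Itgam and Ikbke were lower and Tnfaip3 higher, at -0.24 ± 0.06, -0.29 ± 0.06 and 0.40 ± 0.09 (edgeR adjusted p = 0.0473, 0.00943 and 0.0152). In DMSO cells Lbp, the LPS-binding protein gene, was higher at 1.05 ± 0.28 and Nfkbia lower at -0.27 ± 0.07 (edgeR adjusted p = 0.0458 each). The Lbp and Nfkbia calls ended whichever single library of the compared groups was left out. Lbp was scarce, at 2.45 to 3.45 CPM in DMSO and 5.36 to 7.18 CPM in DMSO+GW3965. The Nfkbia call also ended with the mouse as a replicate block, with DESeq2 size factors and with no filter (edgeR adjusted p = 0.0603, 0.0529 and 0.0518). The Itgam, Ikbke and Tnfaip3 calls ended when 1 library or another was left out. They also ended with only the groups compared in the fit (edgeR adjusted p = 0.152, 0.131 and 0.107).

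Across the 20 libraries most of the genes went with LPS, which the correlations below largely restate, since all points share that contrast. The Pearson r of log2 CPM between Tlr2 and Cd14 was 0.99 and that between Tlr2 and Tlr3 0.99. Tlr13 ran against them, at -0.98 with Tlr2, and Tlr4 was looser, at -0.66 with Tlr2. Of the 12012 other genes tested, those most like Tlr3, the gene with the widest range of group means (4.24 on the log2 scale), were Gbp9 (r = 0.998), Slfn8 (0.998) and Slfn5 (0.997). Those most like Tlr2, with a range of 4.05, were Socs3, Adam17 and Mxd1 (r = 0.998 each). For Cd14, with a range of 3.60, they were Foxp4 (0.999), Gadd45b (0.999) and Nfkbia (0.998), and for Tlr1, with a range of 2.38, Nck1 (0.998), Nrp2 (0.997) and Gpd2 (0.997).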

How the data were processed

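RNA of 20 macrophage cultures in 6 groups was sequenced as single 50-base reads. Per the submitters' processing notes, the aligner was STAR 2.5.2b, the genome mm10, and SAMtools 1.3.1 was also used; how transcripts were counted, with which annotation and strand, is not given in the sources. The authors deposited a table of read counts per RefSeq transcript and a table of RPKM of the same 35745 transcripts. Symbols came from RefSeq's GRCm38.p6 gene table (35440 transcripts named); the 305 unnamed transcripts held 1.17% of counts and were left out. Per symbol, only the transcript of highest summed count was used, which kept 57.3% of all counts. RPKM served to rank levels between genes and for another choice of transcript.

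Counts were tested with edgeR 4.0.16 (R 4.3.3) by the quasi-likelihood F test, fitting 6 group means to all 20 libraries with TMM scaling, filterByExpr with a minimum count of 10 (12013 genes) and Benjamini-Hochberg adjustment over all genes; calls are at an adjusted p under 0.05. The biological coefficient of variation was 8.87%. Errors beside log2 changes are 1 SE, the size of the change over the square root of F; errors beside levels are 1 SD. CPM values are TMM-scaled.

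The deposited sample table names a mouse for each library. Its number equals the number in the title in 20 of 20, so equal numbers mark the same mouse (deviations from group means correlated at 0.06 to 0.5 over 46 pairs, above 0.1 in 39). The fit had no mouse term; a replicate block was an alternative. Alternatives were library totals only, DESeq2 size factors, DESeq2 1.42.0, other filters, another transcript, only the groups compared, each library left out, SGC0946 replicates 2 and 4 left out and the libraries titled reanalyzed left out. The scripts were tested on simulated data. P-values measure the spread between cultures of 4 mice.

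Members and lists were chosen with earlier results of these data known. All 10 members are named; from each pathway list and comparison up to 2 called genes per direction, those of smallest adjusted p, are named, and similar genes only for the 4 members with the widest range.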

Additional observations from a re-analysis of the deposited data

How the results depend on the processing

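No single-library removal reversed a called result. Of 1066 values recomputed with 1 library left out, 941 kept direction and side of the threshold, 55 lost their call, 2 gained one and 68 changed sign without a call. Of 1170 values under the other alternatives, 1116 were kept, 24 lost a call, 4 gained one, 18 changed sign without a call and 8 reversed. The transcript chosen by RPKM changed nothing. With mice paired as a replicate block, Tlr3 with LPS gained its call and Nfkbia under GW3965 in DMSO cells lost its own; no other call of a named gene changed.

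With library totals only, the LPS response reversed for Tlr7 (-0.075 in SGC0946 cells, -0.087 in DMSO cells), Tlr8 (-0.376 and -0.201), Tlr9 (-0.454 and -0.076), Hsp90b1 (-0.444, SGC0946 cells) and Unc93b1 (-0.394, DMSO cells). Of these, Tlr7 in both arms and Tlr9 in DMSO cells did not pass; the others passed as lower. Higher and lower calls with library totals, against TMM, were 634 and 378 against 546 and 502 for SGC0946 in unstimulated cells, 120 and 186 against 158 and 133 for GW3965 in SGC0946 cells, and 129 and 228 against 162 and 144 for GW3965 in DMSO cells.

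Counts of genes called that moved over 1.5 times, the cause not tested: for SGC0946 in unstimulated cells 321 without SGC0946 replicates 2 and 4 and 103 without the libraries titled reanalyzed (both leave fewer libraries), with 0 of the 10 members called in either; for SGC0946 under GW3965, 703 with the replicate block and 164 with only the groups compared; for GW3965 in SGC0946 cells, 88 with only the groups compared and 102 without SGC0946 replicates 2 and 4, with 0 members in either; for GW3965 in DMSO cells, 531 with the block, 888 with only the groups compared and 508 with DESeq2; for the difference of LPS responses, 11 with no filter, 6 with the block and 38 with DESeq2. Members called for SGC0946 with LPS were 0 with no filter and 2 with the block, and for GW3965 in DMSO cells 2 with only the groups compared.

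With 1 library left out, genes and members called ranged over 578 to 1099 and 0 to 2 (SGC0946, unstimulated), 432 to 796 and 0 to 1 (SGC0946, LPS), 232 to 454 and 0 to 1 (SGC0946, GW3965), 8534 to 8797 and 8 to 9 (LPS, SGC0946 cells), 8427 to 8700 and 10 to 10 (LPS, DMSO cells), 134 to 485 and 0 to 2 (GW3965, SGC0946 cells) and 122 to 343 and 0 to 1 (GW3965, DMSO cells). The difference of LPS responses had 1 to 11 genes and 0 members, and that of GW3965 responses 0 and 0. The lowest count of any of the 10 genes in a library was 215, and each group mean rests on 3 or 4 libraries.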
